A study of Mus musculus with 12 samples.

Results

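The genes described here encode receptors through which macrophages sense extracellular nucleotides and adenosine, together with surface enzymes that turn one into the other. They are 10 of the 38887 genes in the tables and were taken by name: the adenosine receptors Adora2a and Adora2b, the ATP-gated channels P2rx4 and P2rx7, the nucleotide receptors P2ry1, P2ry2, P2ry6 and P2ry14, and the ectoenzymes Entpd1 and Nt5e. RNA was sequenced from bone marrow-derived macrophages (BMMs), which are bone marrow cells grown into macrophages with M-CSF, here at 50 ng/ml for 6 days. They came from 3- to 4-month-old mice with a myeloid deletion of the RNA-binding protein IGF2BP2 (KO) or from wild-type (WT) littermates. BMMs were left untreated (M0) or received IL-4, the cytokine that drives alternative activation, at 20 ng/ml for 8 hours (M2). Each of the 4 groups, WT M0, KO M0, WT M2 and KO M2, held 3 libraries, 12 in all.

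The KO mice carried loxP sites around exons 4 and 5 of Igf2bp2 and Cre recombinase inserted at Lyz2, a locus active in myeloid cells. The WT littermates had no floxed allele, and the labels do not say which of them carried Cre. An effect of losing IGF2BP2 and an effect of the Cre insertion therefore cannot be told apart. All groups shared the M-CSF culture. Each group of 3 libraries came from 3 mice. Whether the untreated and IL-4-treated libraries of a genotype came from the same mice is not stated.

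ATP and UTP leave stressed, dying or activated cells and act as danger signals. P2X receptors are ion channels opened by ATP, whereas P2Y receptors are G protein-coupled and differ in the nucleotide they prefer. Entpd1 (CD39) strips phosphates from ATP and ADP to give AMP, and Nt5e (CD73) converts AMP into adenosine, which signals through its own receptors, mostly to restrain inflammation. In macrophages, P2X7 is best known for starting NLRP3 inflammasome assembly and IL-1β release, P2Y6 for phagocytosis, and adenosine receptors for enhancing alternative activation.

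The genes lie on 7 mouse chromosomes (GRCm38, GENCODE M21). Adora2a is at chr10:75316877-75334784 and Adora2b at chr11:62248984-62266453, both on the plus strand. The channels P2rx7 (chr5:122643911-122691432) and P2rx4 (chr5:122707544-122729738) are adjacent on the plus strand, as are P2ry6 (chr7:100937630-100974649) and P2ry2 (chr7:100996568-101012866) on the minus strand. P2ry1 (chr3:61002795-61008982, plus strand) and P2ry14 (chr3:59113855-59153618, minus strand) share a chromosome, and P2ry14 lies inside Med12l, a gene of the other strand that reached at most 0.04 TPM. Entpd1 is at chr19:40612366-40741602 and Nt5e at chr9:88327197-88372092, both on the plus strand. Values are for whole genes, over all their annotated exons.

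Library totals ran from 20011792 to 39632770 expected counts. The summed level of 6 macrophage markers was between 2996 and 3860 TPM (transcript abundance scaled by length and library size) in every library. Single markers moved within that sum. From WT M0 to WT M2 the mean of Adgre1 went from 525 to 783 TPM and that of Fcgr1 from 75.1 to 35.2 TPM. Between WT M0 and KO M0, Itgam averaged 385 and 525 TPM, and Adgre1 525 and 461 TPM. Igf2bp2 ran from 42.1 to 70.1 TPM in untreated WT libraries and from 48.5 to 56.1 in untreated KO libraries, and with IL-4 from 95.9 to 127 in WT and from 71.3 to 75.4 in KO. Its gene-level value also counts reads outside the 2 deleted exons, so it does not check the deletion. The paper reports that IGF2BP2 was nearly undetectable in KO BMMs, as protein and as mRNA by qPCR. In KO against WT the log2 fold change of Igf2bp2 was -0.11 in M0 (adjusted p = 0.656) and -0.65 in M2 (adjusted p = 0.0285, edgeR). The M2 call held in 8 of 14 alternatives, and was lost without WT M2 replicate 1 or 2 or KO M2 replicate 2 or 3 (highest adjusted p = 0.127) and on TPM with limma (adjusted p = 0.0811 with a pseudocount of 1 and 0.0819 with 0.1). Lyz2 did separate the genotypes, with 6126 to 15401 TPM in WT libraries and 15.2 to 50.2 in KO libraries.

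In WT M0 the order of levels was P2ry6, P2rx4, P2rx7, P2ry2, Adora2b, Entpd1, P2ry1, P2ry14, Nt5e and Adora2a. P2ry6, the UDP receptor, averaged 171 TPM, and P2rx4, the ATP-gated channel of endolysosomes and the cell surface, averaged 110 TPM. P2rx7, P2ry2 and Adora2b followed at 21.8, 18.8 and 16.8 TPM, and the ranges of neighbours among these 3 overlapped. Adora2a, at 0.257 TPM, was the lowest of the set, and neither Nt5e nor Adora2a exceeded 1 TPM in any library. P2ry6 and P2rx4 together made up 81.2% to 83.2% of the summed TPM of the 8 receptors in the 12 libraries. Within that sum the share of P2ry6 was 49.1% to 50.6% in the 6 M0 libraries and 55.4% to 56.5% in the 6 M2 libraries, without overlap. The summed level itself ran from 327 to 378 TPM in M0 and from 484 to 561 TPM in M2.

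**Figure D1:**
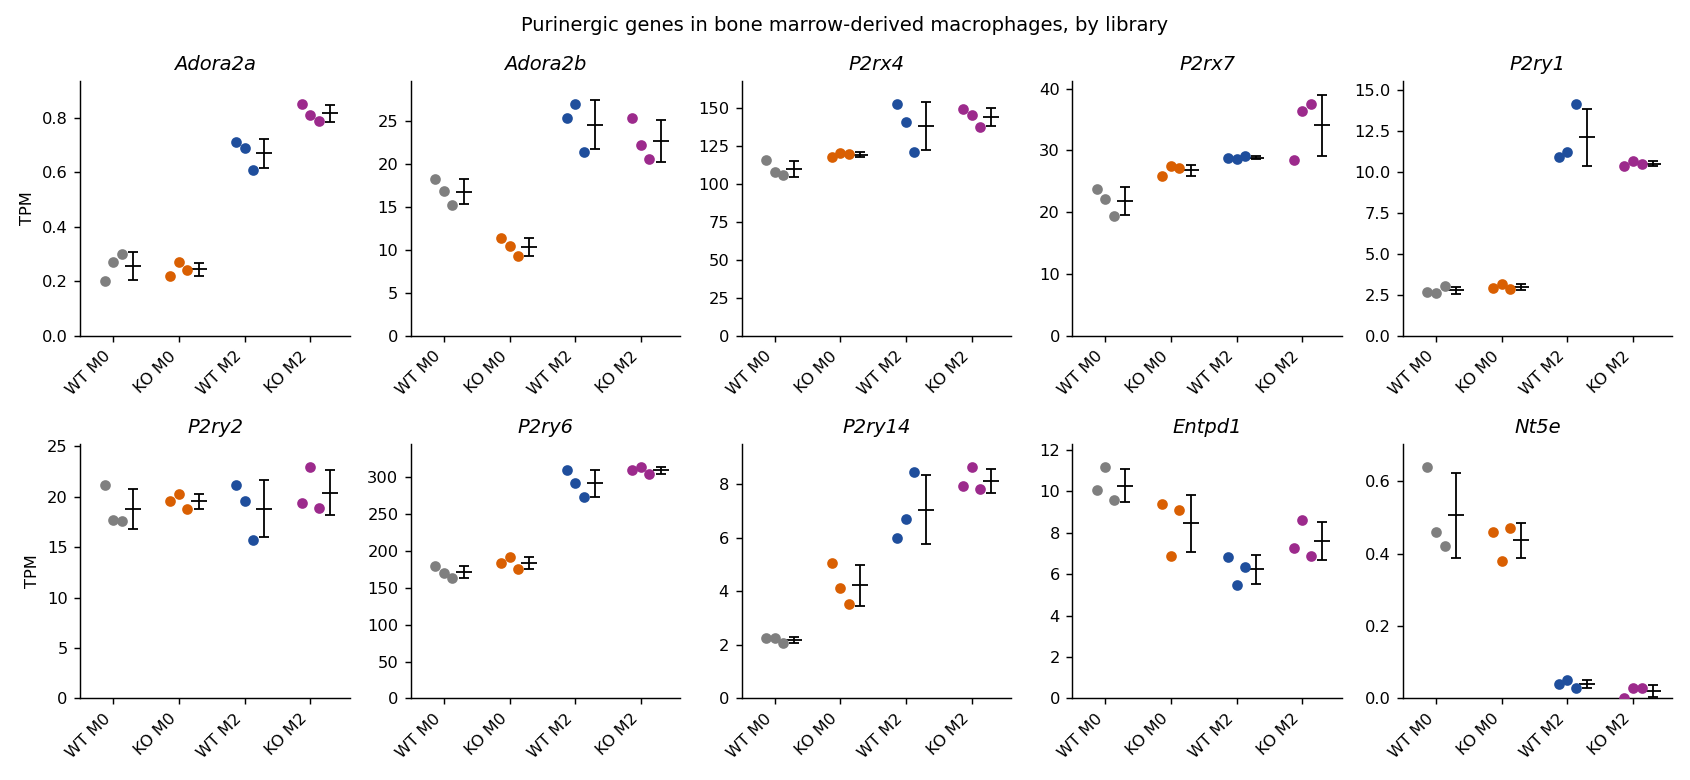
TPM (vertical axis, linear from 0, scaled separately for each gene) of the 10 purinergic genes in WT M0, KO M0, WT M2 and KO M2; each point is 1 library, and the black mark shows the mean ± SD of 3 libraries. In M0, Adora2b, P2rx4, P2rx7, P2ry14 and Entpd1 separate KO from WT, while 9 of the 10 genes separate WT M2 from WT M0, with P2ry2 the exception.

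The first question was what IL-4 did to these genes in WT BMMs. Of the 10 genes, 7 rose and 2 fell at an adjusted p under 0.05 (edgeR quasi-likelihood test with Benjamini-Hochberg adjustment over 12846 genes), where 50% of all genes tested passed, 24.9% as higher and 25.1% as lower. The median log2 fold change was 0.58 over the 10 genes and -0.01 over all genes tested. Adora2a and Nt5e entered the test only through the groups in which they were high (M2 and M0, respectively), so 6 genes higher and 1 lower remain without them. WT M0 and WT M2 did not overlap for 9 of the 10 genes, both in TPM and in CPM, against 55.2% of all genes in CPM. CPM are read counts scaled to a common library size, with transcript length set aside. These 9 genes include Adora2a and Nt5e, whose separation is no support, and the median includes them too.

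Among the receptors, P2ry1 showed the largest rise. This ADP receptor couples to Gq and raises intracellular calcium. It measured 2.65, 2.62 and 3.03 TPM in WT M0 against 10.9, 11.2 and 14.1 TPM in WT M2. The groups did not overlap, and the rise was 4.57-fold (log2 2.19 ± 0.110 SE, adjusted p = 4.98e-09, edgeR). In KO BMMs the gene went from 2.91, 3.18 and 2.83 TPM to 10.4, 10.7 and 10.5 TPM, again without overlap, a 3.73-fold rise (log2 1.90 ± 0.106, adjusted p = 1.29e-08, edgeR). Of the exonic bases of P2ry1, 23.1% lie opposite the annotated antisense transcript Gm37035, and the strand setting used in counting is not given in the sources used here.

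P2ry14, the Gi-coupled receptor for UDP-glucose, gave 2.26, 2.26 and 2.06 TPM in WT M0 and 5.97, 6.68 and 8.46 TPM in WT M2. All WT M2 libraries were above all WT M0 libraries, by 3.40-fold (log2 1.77 ± 0.159, adjusted p = 1.25e-06, edgeR). In KO the corresponding values were 5.04, 4.12 and 3.52 TPM in M0 and 7.94, 8.64 and 7.81 TPM in M2. These groups did not overlap either, and the rise was 2.05-fold (log2 1.04 ± 0.142, adjusted p = 4.96e-05, edgeR).

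P2ry6 started from a much higher level. Its values were 179, 169 and 164 TPM in WT M0 and 309, 293 and 273 TPM in WT M2. It rose 1.78-fold in WT (log2 0.83 ± 0.0528, adjusted p = 4.44e-08, edgeR) and 1.78-fold in KO (log2 0.83 ± 0.0525, adjusted p = 4e-08, edgeR), where it went from 184, 191 and 175 TPM to 309, 314 and 304 TPM. The groups were separate in both genotypes, and the responses differed by -0.00 on the log2 scale (95% interval -0.16 to 0.16).

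P2ry2, the ATP and UTP receptor that acts in find-me signalling from dying cells, lies next to P2ry6 on chromosome 7 with no protein-coding gene in the 21918 bases between them. P2ry2 did not pass the test in either genotype. It measured 21.1, 17.6 and 17.6 TPM in WT M0 and 21.2, 19.5 and 15.7 TPM in WT M2, and the groups overlapped. The KO libraries overlapped too, at 19.6, 20.2 and 18.8 TPM in M0 and 19.4, 22.9 and 18.9 TPM in M2. The log2 fold change of P2ry2 with IL-4 was 0.08 in WT (95% interval -0.12 to 0.29, adjusted p = 0.497, edgeR) and 0.13 in KO (95% interval -0.07 to 0.33, adjusted p = 0.271, edgeR).

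Both ATP-gated channels rose by smaller factors. P2rx4 gave 116, 108 and 106 TPM in WT M0 and 153, 141 and 121 TPM in WT M2, a 1.38-fold rise (log2 0.47 ± 0.0639, adjusted p = 5.26e-05, edgeR). P2rx7, the low-affinity channel whose opening allows potassium efflux, gave 23.8, 22.2 and 19.4 TPM in WT M0 and 28.7, 28.7 and 29.1 TPM in WT M2. That rise was 1.45-fold (log2 0.54 ± 0.0888, adjusted p = 2.54e-04, edgeR), and for neither channel did WT M0 and WT M2 overlap. In KO, P2rx4 went from 118, 121 and 119.97 TPM to 149, 146 and 138 TPM, a 1.29-fold rise (adjusted p = 3.12e-04, edgeR). P2rx7 went from 25.8, 27.5 and 27.1 TPM to 28.4, 36.4 and 37.5 TPM, a 1.35-fold rise (adjusted p = 9.18e-04, edgeR), and the KO groups did not overlap for either channel. The channels are neighbours on chromosome 5, 16111 bases apart, and the ratio of P2rx4 to P2rx7 in TPM lay between 3.68 and 5.46 in the 12 libraries.

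The adenosine receptors stood at very different levels. Adora2b, the low-affinity Gs-coupled receptor, measured 18.2, 16.9 and 15.3 TPM in WT M0 and 25.4, 26.98 and 21.4 TPM in WT M2. For Adora2b the groups did not overlap, with a 1.53-fold rise (log2 0.61 ± 0.111, adjusted p = 5.15e-04, edgeR). Adora2a, the high-affinity Gs-coupled receptor, gave 0.20, 0.27 and 0.30 TPM in WT M0 and 0.71, 0.69 and 0.61 TPM in WT M2, a fitted log2 difference of 1.44 ± 0.255. It rested on 8 to 44 counts per library over the 12 libraries and entered the test only through the M2 groups, so its calls with IL-4 are no support for a rise. In TPM, Adora2b was 50.9 to 91.0 times Adora2a in WT M0, 35.1 to 39.1 times in WT M2, 38.5 to 51.5 times in KO M0 and 26.04 to 29.84 times in KO M2. In KO, Adora2a went from 0.22, 0.27 and 0.24 TPM to 0.85, 0.81 and 0.79 TPM, a fitted log2 difference of 1.80 ± 0.235.

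The ectoenzyme Entpd1 fell with IL-4 in WT BMMs. It gave 10.1, 11.2 and 9.59 TPM in WT M0 and 6.83, 5.49 and 6.36 TPM in WT M2. All WT M2 libraries were below all WT M0 libraries, and the log2 fold change was -0.67 ± 0.135 (adjusted p = 0.00109, edgeR). Nt5e was near the limit of detection, with 37, 27 and 22 counts in WT M0 and 2, 2 and 1 counts in WT M2. Summed over libraries and set against the library totals, the WT M2 level was 12.9-fold lower (exact 95% interval 5.31 to 40.7, counting error only). In KO the counts were 24, 28 and 33 in M0 and 0, 2 and 2 in M2, which is 22.5-fold lower (exact 95% interval 8.46 to 84.4, counting error only). Nt5e entered the edgeR test only through the M0 groups. Its calls with IL-4 are part of the numbers of genes that fell, but are no support for a fall. Nt5e also marks stromal cells, and the summed level of 4 stromal markers was 6.76 to 13.9 TPM in WT M0 and 6.63 to 12.9 TPM in WT M2. In bulk RNA, fewer cells of a type and less RNA per cell cannot be told apart.

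Markers of other cells moved with IL-4 as well. The summed level of 4 dendritic cell markers went from 0.13 to 0.33 TPM in WT M0 to 0.79 to 1.05 TPM in WT M2, and from 0.18 to 0.46 TPM in KO M0 to 0.86 to 1.03 TPM in KO M2. Most of each sum in M2 was Zbtb46, which in WT went from 0.13 to 0.24 TPM without IL-4 to 0.73 to 1.05 TPM with it, and in KO from 0.12 to 0.21 TPM to 0.83 to 0.90 TPM. It entered the test only through the M2 groups, so no test of it is given. The neutrophil markers summed to 18.1 to 44.4 TPM in WT M0 and 12.1 to 28.2 TPM in WT M2, where S100a9 fell by 0.75 on the log2 scale (adjusted p = 0.0485, edgeR) with overlapping groups. In KO they summed to 14.4 to 16.0 TPM in M0 and 11.1 to 15.9 TPM in M2. The part of these markers in the IL-4 values was not tested.

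In KO BMMs, 7 of the 10 genes rose with IL-4 and 1 fell, where 52.8% of all genes tested passed, 26.8% as higher and 26% as lower. The median log2 fold change was 0.63 over the 10 genes and 0.01 over all genes. Without Adora2a and Nt5e, 6 rose and 0 fell at that threshold. The groups did not overlap for 8 of the 10 genes on either scale, against 63.4% of all genes in CPM. These 8 genes also include Adora2a and Nt5e, whose separation is no support, as does the median. Adora2b went from 11.3, 10.4 and 9.25 TPM to 25.4, 22.2 and 20.6 TPM, a 2.33-fold rise with no overlap (log2 1.22 ± 0.112, adjusted p = 1.28e-06, edgeR). Entpd1 did not pass, with 9.39, 6.88 and 9.09 TPM in KO M0 and 7.28, 8.63 and 6.86 TPM in KO M2. Its log2 fold change was 0.03 (95% interval -0.25 to 0.31, adjusted p = 0.855, edgeR). KO M0 replicate 2 was the low library, and without it the value was -0.14 (adjusted p = 0.199).

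**Figure D2:**
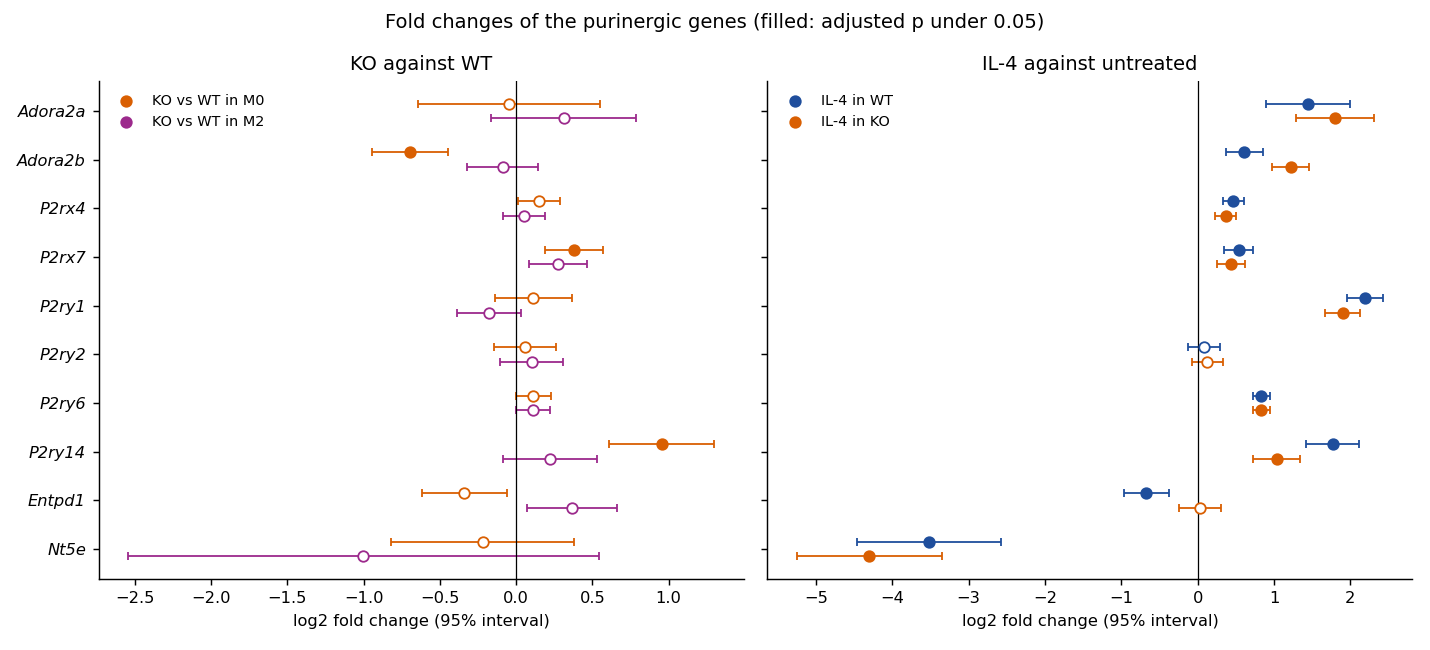
Log2 fold changes (horizontal axes, which differ in range between the panels) of the 10 purinergic genes from edgeR with 95% intervals; the left panel compares KO with WT in M0 and M2, the right panel IL-4-treated with untreated BMMs in WT and KO, and filled points have an adjusted p under 0.05. On the left Adora2b, P2rx7 and P2ry14 are filled in M0 and none in M2. On the right every gene but P2ry2 is filled in WT, where 50% of all genes passed. Entpd1 and P2ry2 are open in KO, where 52.8% of all genes passed. The filled points of Adora2a and Nt5e are no support, since both entered the test only through the groups where they were high.

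The second question was whether loss of IGF2BP2 changed these genes before IL-4. In untreated BMMs, 2 of the 10 genes were higher and 1 was lower in KO, where 9.78% of all genes tested passed, 5.5% as higher and 4.27% as lower. The median log2 fold change was 0.09 over the 10 genes and -0.00 over all genes. The 3 libraries of each genotype did not overlap for 6 of the 10 genes in CPM, against 31.1% of all genes, and for 5 of the 10 in TPM, where P2ry6 overlapped.

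Adora2b was lower in KO M0. Its levels of 11.3, 10.4 and 9.25 TPM lay below the 18.2, 16.9 and 15.3 TPM of WT M0 in every library, and the KO level was 0.618 times that of WT (log2 -0.70 ± 0.114, adjusted p = 0.00333, edgeR). The call held in 14 of 14 alternative analyses. Adora2a, the other adenosine receptor, had overlapping groups (log2 -0.05, 95% interval -0.64 to 0.55, adjusted p = 0.97, edgeR).

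P2ry14 was higher in KO M0, at 5.04, 4.12 and 3.52 TPM against 2.26, 2.26 and 2.06 TPM in WT M0. The groups did not overlap, and the difference was 1.94-fold (log2 0.95 ± 0.159, adjusted p = 0.0036, edgeR), a call kept in 14 of 14 alternatives. P2rx7 was higher by a smaller factor, with 25.8, 27.5 and 27.1 TPM in KO M0 against 23.8, 22.2 and 19.4 TPM in WT M0. Its groups were also separate, at 1.30-fold (log2 0.38 ± 0.0876, adjusted p = 0.0185, edgeR). The P2rx7 call was the least secure of the 3, and was lost without WT M0 replicate 2 (adjusted p = 0.0737), without KO M0 replicate 2 (adjusted p = 0.07), without KO M0 replicate 3 (adjusted p = 0.073) and on TPM with limma (adjusted p = 0.113 with a pseudocount of 1).

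For P2rx4 and Entpd1 the genotypes did not overlap in M0 on either scale, and for P2ry6 in CPM alone, but the test was not passed. For P2rx4, P2ry6 and Entpd1 the log2 fold changes were 0.15 (adjusted p = 0.156), 0.11 (adjusted p = 0.206) and -0.34 (adjusted p = 0.118, all edgeR). P2ry1, P2ry2 and Nt5e had overlapping groups, with log2 fold changes of 0.11, 0.06 and -0.22 and adjusted p-values of 0.591, 0.75 and 0.673 (edgeR). Markers of other cells also differed between these groups. The summed level of 6 neutrophil markers, nearly all of it S100a8 and S100a9 with Ly6g at 0 in every library, was 18.1 to 44.4 TPM in WT M0 and 14.4 to 16.0 TPM in KO M0. That of the stromal markers was 6.76 to 13.9 TPM in WT M0 and 1.89 to 8.29 TPM in KO M0. S100a9 alone ran from 10.65 to 24.56 TPM in WT M0 and from 5.29 to 8.95 TPM in KO M0, without overlap. Of the 2 neutrophil markers tested, 1 was lower in KO M0 at an adjusted p under 0.05 (edgeR). The part of these markers in the differences was not tested.

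In IL-4-treated BMMs none of the 10 genes passed between KO and WT (edgeR), where 2.68% of all genes tested did, 1.21% as higher and 1.46% as lower. At an unadjusted p under 0.05 there were 2, and DESeq2 called 0, where it called 5.58% of all genes. P2rx7 gave 28.7, 28.7 and 29.1 TPM in WT M2 and 28.4, 36.4 and 37.5 TPM in KO M2. The groups overlapped through KO M2 replicate 1, the log2 fold change was 0.28 (95% interval 0.09 to 0.46, adjusted p = 0.109, edgeR), and without that library it was 0.39 (adjusted p = 0.00596). Entpd1 was 6.83, 5.49 and 6.36 TPM in WT M2 and 7.28, 8.63 and 6.86 TPM in KO M2, where all KO libraries were above all WT libraries (log2 0.37, 95% interval 0.07 to 0.66, adjusted p = 0.158, edgeR). Adora2a was the other gene without overlap in CPM (log2 0.31, 95% interval -0.17 to 0.79, adjusted p = 0.462, edgeR), so 2 of 10 were separate against 24.8% of all genes. In TPM 3 of 10 were separate, since P2ry1 also did not overlap on that scale.

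The other members had smaller or less certain values in M2. The log2 fold change in KO against WT was -0.09 for Adora2b (95% interval -0.32 to 0.15) and 0.22 for P2ry14 (95% interval -0.08 to 0.53), the receptors that differed in M0. For P2rx4, P2ry2 and P2ry6 it was 0.05, 0.10 and 0.11, and for P2ry1 it was -0.18 (adjusted p = 0.331, edgeR). Nt5e, with 5 counts in all in WT M2 and 4 in KO M2, was at 0.4995 times the WT level in KO, with a wide 95% interval (-2.55 to 0.54 on the log2 scale, adjusted p = 0.549, edgeR). The summed level of 5 platelet and erythroid markers, mostly Ppbp with Gp9 at 0 in every library, was 9.31 to 14.6 TPM in WT M2 and 18.4 to 20.5 TPM in KO M2. That of the 4 stromal markers was 6.63 to 12.9 TPM in WT M2 and 1.62 to 6.25 TPM in KO M2, also without overlap, with Lum at no more than 0.03 TPM. The part of either in these values was not tested.

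The third question was whether the IL-4 response itself depended on IGF2BP2. The comparisons above share libraries, so the difference between the responses was tested as an interaction. In that test 0 of the 10 genes passed (edgeR), where 3.24% of all genes did, 1.11% as higher in KO and 2.13% as lower, and 3 had an unadjusted p under 0.05: Adora2b, Entpd1 and P2ry14. DESeq2 called all 3, where it called 6.42% of all genes. Untreated and IL-4-treated libraries with the same number deviated together within each genotype. With those pairs, numbered within a genotype, as a block, edgeR called 2, Adora2b and Entpd1, where it called 7.81% of all genes.

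For Adora2b the response was larger in KO by 0.61 on the log2 scale (SE 0.157, adjusted p = 0.0578), and with the replicate block by 0.60 (SE 0.0974, adjusted p = 0.00759, both edgeR). From the levels given above, KO lay below WT in M0 and overlapped WT in M2. For Entpd1, with log2 changes of -0.67 in WT and 0.03 in KO, the difference was 0.70 (SE 0.186, adjusted p = 0.0608), which with the block was 0.72 (SE 0.19, adjusted p = 0.0493, both edgeR). In CPM, Entpd1 measured 14.04, 13.1 and 12.6 in WT M0 and 8.04, 8.45 and 8.49 in WT M2. In KO it measured 11.4, 7.93 and 12.2 in M0 and 10.3, 11.4 and 10.5 in M2. Thus 2 of 3 KO pairs went down and the pair of replicate 2 went up, and without KO M0 replicate 2 the difference was 0.53 (adjusted p = 0.0444, edgeR).

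For P2ry14 the response was smaller in KO by a log2 difference of -0.73 (SE 0.213, adjusted p = 0.0846), and with the block it was -0.71 (adjusted p = 0.0517, both edgeR). KO M0 already lay above WT M0, and the M2 groups overlapped. For the other receptors the 95% interval of the difference included 0, from P2ry6 at -0.16 to 0.16 to Adora2a at -0.41 to 1.12. P2ry1 had a difference of -0.29 (95% interval -0.62 to 0.04, adjusted p = 0.343, edgeR).

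**Figure D3:**
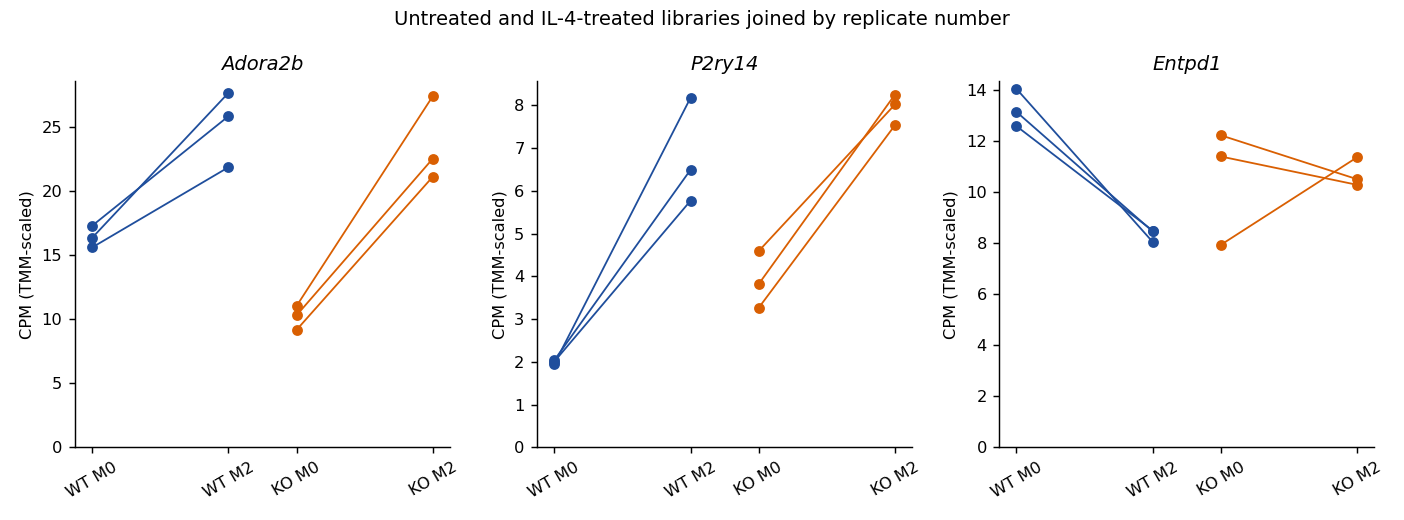
CPM (read counts scaled to library size, vertical axis, linear from 0, TMM-scaled) of Adora2b, P2ry14 and Entpd1 in untreated (M0) and IL-4-treated (M2) WT (blue) and KO (orange) libraries, with lines joining libraries of the same number. Lines for Adora2b and P2ry14 go up in both genotypes, from a lower KO start for Adora2b and a higher KO start for P2ry14, while those for Entpd1 go down in 3 of 3 WT and 2 of 3 KO pairs.

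RefSeq promoter windows (GRCm38.p6, 250 bases before to 50 after each start site) matched 8 of the 10 genes in 14 windows. Letters of the AP-1 type (TGANTCA, which reads the same on both strands) were shown by 3 of these 14 windows and by 7.81% of all 32851 windows. They are printed because they lie in P2ry14 and P2rx7, the pair that was higher in KO M0, with the motif in capitals and each sequence 5′ to 3′ on the strand of its gene.
P2ry14, chr3:59153676-59153705, minus strand: tgctgtttgtaTGACTCAtggagggaacca
P2ry14, second start site, chr3:59131454-59131483, minus strand: ttaaaaccatgTGAATCAaaactttaaaat
P2rx7, chr5:122643677-122643706, plus strand: cTGAGTCAcactgggtcttacaacatttga
The motifs began at positions -202, -144 and -249 from their start sites. The STAT6-type letters TTCNNNNGAA were in 0 of the 14 windows and in 6.95% of all windows, the related TTCNNNGAA in 0 and 8.3%, and the cAMP response element TGACGTCA in 0 and 1.79%. The PU.1-type letters GAGGAAGT, searched on both strands, were in 1 window, of P2rx7, and in 3.2% of all windows. These matches describe letters in short windows and say nothing of binding.

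Outside the 10 genes, other receptors of the family were scarce. Of the 11 further adenosine and P2 receptors 6 were high enough to test, and none reached a mean of 5 TPM in any group. With IL-4, P2ry13 had a log2 fold change of 1.47 in WT, from 10, 22 and 17 counts in M0 to 22, 27 and 46 in M2. WT M0 alone would not have passed the filter, so that call is no support for a rise. Adora3, a Gi-coupled adenosine receptor, fell in WT by 1.09 (log2, adjusted p = 0.00486, edgeR). In KO, Adora3 fell by 0.91 (adjusted p = 0.00802, edgeR). P2rx5 and P2rx6 had log2 fold changes of 1.97 and 1.06 in KO, but they entered the test only through IL-4-treated groups (P2rx6 through KO M2 alone), so their calls are no support for a rise. Between KO and WT 0 of the 6 passed in M0 or in M2 (edgeR), beside 9.78% and 2.68% of all genes, so 0 of so few says little of the list. The same shares apply to the KO against WT counts of the 5 lists that follow.

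Of 13 further nucleotide-hydrolysing enzymes, 8 were tested. Enpp1, which cleaves ATP to AMP and pyrophosphate, moved most with IL-4. It measured 4.03, 4.23 and 3.95 TPM in WT M0 and 22.2, 22.8 and 22.2 TPM in WT M2, a 6.01-fold rise without overlap (adjusted p = 1.03e-11, edgeR). In KO it rose 5.80-fold (adjusted p = 9.15e-12, edgeR). With IL-4, 4 of the 8 rose and 2 fell in WT, and 3 rose and 2 fell in KO, where 24.9% and 25.1% of all genes did so in WT and 26.8% and 26% in KO. The NAD- and cyclic ADP-ribose-handling enzyme Cd38 rose by 0.60 in WT (log2, adjusted p = 0.00304), and the intracellular members Entpd7 and Entpd5 fell in both genotypes, by 0.57 and 0.53 in WT and by 0.86 and 0.57 in KO. Entpd6 rose by 0.45 in KO (adjusted p = 3.21e-04) and by 0.34 in WT (adjusted p = 0.00323, edgeR). Between KO and WT in M0, Entpd7 was higher by 0.36 (log2, adjusted p = 0.00198, edgeR), and 0 of the 8 passed in M2. The Entpd7 call held in 12 of 14 alternatives, and was lost on TPM with limma (adjusted p = 0.108 with a pseudocount of 1).

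Of 6 tested genes of adenosine transport and clearance, 2 rose and 3 fell with IL-4 in each genotype, beside the 50% of all genes that passed in WT and 52.8% in KO. Slc29a3 and Slc29a2, equilibrative nucleoside transporters, rose by 0.95 and 0.63 in WT and by 0.84 and 0.81 in KO. Slc29a1, the equilibrative transporter with the highest level (mean 101 TPM in WT M0), fell by 0.38 in WT and by 0.21 in KO. Adk, the kinase that returns adenosine to AMP, fell by 0.72 in WT and by 0.46 in KO, and the concentrative transporter Slc28a2 fell by 0.79 and 1.16 (all log2, edgeR). Of 5 tested genes of ATP release, 1 rose in each genotype, while 3 fell in WT and 2 in KO. Slc17a9, which loads vesicles with ATP, rose by 0.77 in WT and 0.89 in KO, while the large-pore channels Calhm2 and Panx1 fell in both (Calhm2 by 0.78 and 0.88, Panx1 by 0.50 and 0.60). The gap junction gene Gja1 fell by 0.63 in WT (adjusted p = 0.00167) and had a log2 change of -0.07 in KO (adjusted p = 0.666, edgeR). In neither list did a gene pass between KO and WT, in M0 or in M2 (edgeR).

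The 7 genes of the inflammasome served by P2X7 were tested in full. Nlrp3, the sensor that responds to P2X7-driven potassium efflux, gave 66.1, 69.6 and 65.7 TPM in WT M0 and 41.7, 44.9 and 43.7 TPM in KO M0. The groups were well apart, with a log2 fold change of -0.62 (SE 0.0726, adjusted p = 4.77e-04, edgeR), opposite in sign to that of P2rx7 in the same libraries. Il1b was lower in KO M0 as well (log2 -1.34, adjusted p = 0.0437, edgeR), but that call held in 7 of 14 alternatives and in 1 of the 6 that left out a library. With IL-4, Nlrp3 fell by 2.31 in WT and by 1.54 in KO, a difference between the responses of 0.77 (SE 0.108, adjusted p = 0.0041, edgeR). Il18 fell by 1.47 and 1.66, and Pycard, the adaptor, rose by 0.51 and 0.61 in WT and KO. Il1b fell by 1.21 in WT (adjusted p = 0.0211) and had a log2 change of -1.01 in KO (adjusted p = 0.0632). The protease gene Casp1 fell by 0.15 in KO (adjusted p = 0.037) and had a log2 change of -0.13 in WT (adjusted p = 0.0577, edgeR). The Casp1 call in KO held in 10 of 14 alternatives and in 2 of the 6 that left out a library. In each genotype 1 of the 7 rose and 3 fell, near the 50% (WT) and 52.8% (KO) of all genes that passed.

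Among 24 G proteins, adenylyl cyclases, phosphodiesterases and calcium-signalling genes downstream of the receptors, 23 were tested. With IL-4, 7 rose and 6 fell in WT, and 7 rose and 5 fell in KO. Those are 13 and 12 of the 23, near the shares of all genes that passed (50% in WT and 52.8% in KO). Gna15, a Gq-family subunit that couples to many receptors, rose 3.02-fold in WT and 3.27-fold in KO, and the adenylyl cyclase Adcy7 2.01-fold and 1.84-fold. Pde3b, which degrades cAMP, fell by 2.43 and 1.69 on the log2 scale (all edgeR). Crem, a cAMP-responsive transcription factor, rose by 0.86 in WT (adjusted p = 4.1e-05) and by 0.77 in KO (adjusted p = 7.2e-05), and the phosphodiesterase Pde4d rose by 1.07 in KO (adjusted p = 5.3e-04) with 0.32 in WT (adjusted p = 0.224, all edgeR). Between KO and WT in M0, Pde3b was lower by -0.62 (adjusted p = 0.018), Pde4a by -0.25 (adjusted p = 0.0194), and Itpr2, a calcium-release channel, was higher by 0.38 (adjusted p = 0.0239, edgeR). When single libraries were left out these 3 calls held in 2, 2 and 3 of 6 fits. Across the 6 lists, Nlrp3 was the 1 gene whose IL-4 response differed between genotypes at an adjusted p under 0.05 (edgeR), so genes that passed in 1 genotype alone are not shown to respond differently.

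**Figure D4:**
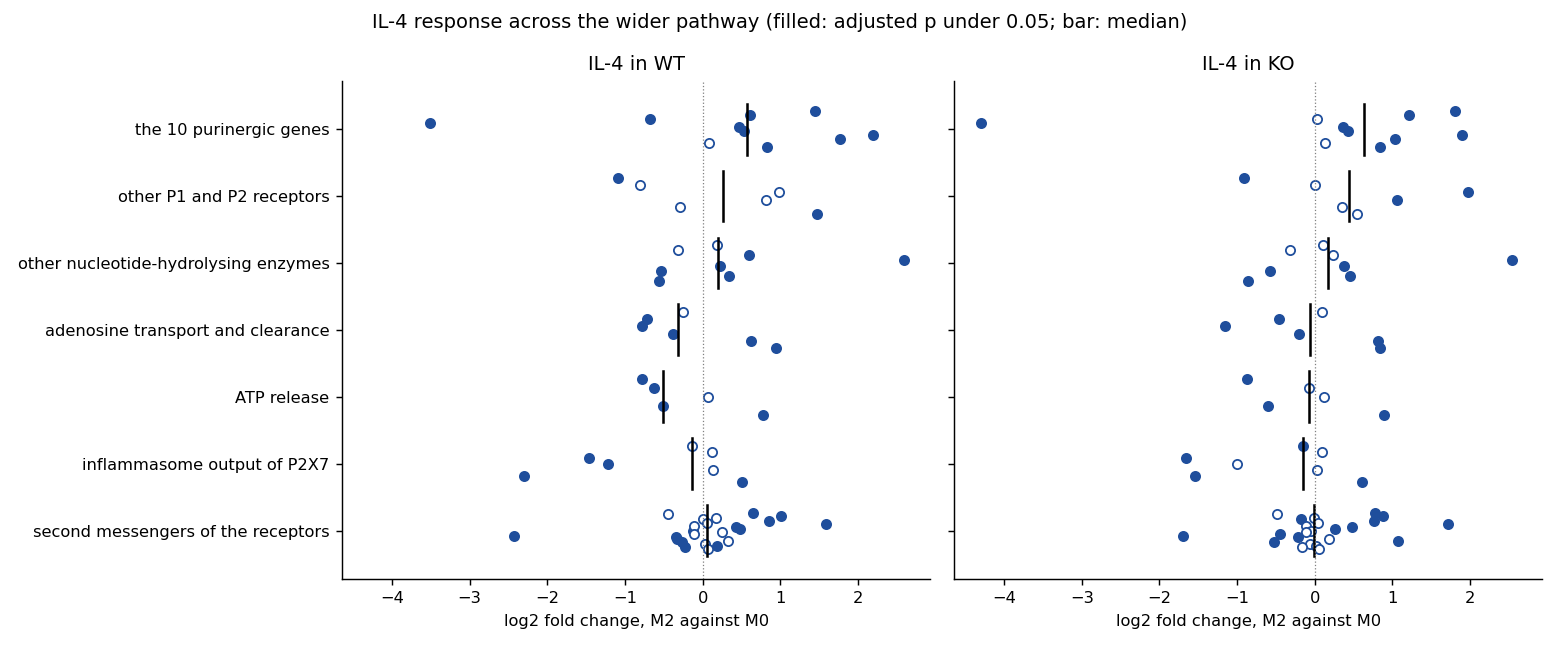
Log2 fold changes with IL-4 (horizontal axis) in WT (left) and KO (right) BMMs for the 10 purinergic genes and 6 lists of related genes; each point is 1 tested gene, filled points have an adjusted p under 0.05 (edgeR), and black bars are list medians. The medians of the 10 genes, 0.58 in WT and 0.63 in KO, lie to the right of those of the 6 lists. Nt5e is the point furthest to the left in both panels. Nt5e and Adora2a entered the test only through the groups where they were high, and the medians include them.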

How the data were processed

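The authors processed reads with the Grape-nf pipeline, with alignment to GRCm38/mm10, and deposited 1 table per library with expected counts per gene, posterior SDs, effective lengths and TPM. The program that counted and its strand setting are not given in the sources used here. Library preparation was poly(A)-selected and directional, with single-end reads. The comparison tables the authors deposited hold fold changes and p-values that were not used; only their gene symbols were read (21000 IDs, with 16570 more from GENCODE M21).

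Expected counts were rounded to whole numbers and tested with edgeR 4.0.16 (quasi-likelihood test, TMM factors, filterByExpr with a minimum count of 10, 4 groups in 1 fit of 12 libraries), with Benjamini-Hochberg adjustment over 12846 genes. Levels between genes were compared on the deposited TPM. The common biological coefficient of variation was 8.08%. With 3 libraries against 3, an exact permutation test cannot go below p = 0.1, so none is given. The test was tried on simulated data, with 200 of 12846 genes changed by a log2 of 1. It recovered 90% in KO vs WT in M0 and 89.5% in M2. For IL-4 it recovered 79.5% in WT and 90.5% in KO, and for the difference 74.5%. The simulated spread followed the dispersion trend, without the spread of single genes around it. Smaller changes were not simulated, so their recovery is not known. Nt5e ratios carry exact (Clopper-Pearson) 95% intervals.

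Alternatives were DESeq2 1.42.0, RLE size factors, other filters, limma 3.58.1 on log2(TPM + 1) and log2(TPM + 0.1), a block for the replicate number (within genotype for IL-4 and the interaction), the 6 libraries compared alone, and leaving out each library. The numbers were taken to pair M0 with M2 because the deviations of same-numbered libraries correlated at 0.103 to 0.364 in 6 of 6 pairs. The members and lists were chosen with earlier results of these data known. All 10 members are named. Of each other list at most 4 genes per comparison were picked, those with the largest change that passed. Some of these are also given in comparisons where they were not picked, and Slc29a1 was added for its level.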

Additional observations from a re-analysis of the deposited data

Results flagged for a closer look

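Entpd1 stood out because KO lay below WT in every M0 library and above WT in every M2 library. The log2 difference between the IL-4 responses was 0.70 (adjusted p = 0.0608, edgeR; 0.0493 with the replicate block). The effective length given for Entpd1 ran from 2036.95 to 2648.41 bases across libraries, and its part was not tested.

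Nlrp3 stood out because the difference between the IL-4 responses passed the test, at 0.77 on the log2 scale (adjusted p = 0.0041, edgeR), and it kept that call in 19 of 19 alternatives.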

How the results depend on the processing

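Of 740 values recomputed for the 10 genes under the alternatives, 704 kept their direction and their side of the threshold, 5 lost the call (all P2rx7 in KO against WT in M0), 10 gained one and 21 changed sign. The count of genes called for the genotype by IL-4 interaction was 0, against 3 with DESeq2, 2 with all genes of at least 1 count, 2 with the replicate block, and 0 to 1 when 1 library was left out; for KO against WT in M2 it was 0 to 1 when 1 library was left out. Leaving out KO M0 replicate 2, KO M0 replicate 3 or KO M2 replicate 1 gave these single calls, of Entpd1, Entpd1 and P2rx7. The replicate block changed no other call of the 10 genes. Same-numbered WT and KO libraries did not deviate together (correlations -0.0684 to 0.0403), so the block across genotypes joins only numbers. Over all genes, the interaction was called for 416 genes, against 825 with DESeq2, 1003 with the block and 113 with limma. KO against WT in M2 was called for 344 genes, against 717 with DESeq2, 165 in the 6 libraries alone and 57 to 70 with limma, and in M0 for 1256, against 700 to 752 with limma. Leaving out 1 library gave 183 to 643 (interaction), 25 to 298 (M2) and 461 to 1461 (M0). On TPM with limma, the log2 change with IL-4 of P2ry2 in WT was -0.0028 (pseudocount 1) and -0.0032 (pseudocount 0.1), that of Entpd1 in KO was -0.133 and -0.147, and the interaction of Nt5e was 0.038 (pseudocount 1). With the replicate block the interaction of P2ry6 was 0.0006952. Leaving out 1 library in turn changed the sign of values near 0: the interaction was -0.054 to 0.123 for P2ry2, -0.046 to 0.042 for P2ry6 and -0.167 to 0.0090 for P2rx7, while Adora2a in KO against WT in M0 was -0.229 to 0.114, P2rx4 in M2 -0.025 to 0.106, Entpd1 with IL-4 in KO -0.139 to 0.162 and Igf2bp2 in M0 -0.257 to 0.042. The cause was not tested. With at least 1 CPM in 3 libraries, Nt5e was no longer tested, so 8 genes were called in WT and 7 in KO. Depth limits Adora2a and Nt5e, at 8 to 44 and 0 to 37 counts per library. Of 820 values recomputed for the other named genes, 768 kept their direction and their side of the threshold. Of the rest, 49 lost the call, 2 gained one and 1 changed sign. Il1b with IL-4 in WT and Pde4d with IL-4 in KO each kept the call in 12 of 14 alternatives.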
